A study of Mus musculus with 10 samples.

Results

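Fibroblast growth factor (FGF) ligand and receptor genes were followed through early mouse embryoid body differentiation with and without induction of Etv2. The set was listed by gene symbol, but it was chosen with earlier results of these data known. It comprised 6 ligand genes (Fgf3, Fgf4, Fgf5, Fgf8, Fgf15 and Fgf17) and 4 receptor genes (Fgfr1, Fgfr2, Fgfr3 and Fgfr4). All 10 were found among the 23337 genes of the count table, and all 10 were among the 14548 that passed the filter on low counts.

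FGF ligands are secreted proteins that bind receptor tyrosine kinases at the cell surface, with heparan sulphate as a cofactor. Receptor dimers pass the signal through docking proteins to the RAS-ERK cascade, which switches on transcription factors of the PEA3 group (Etv1, Etv4, Etv5) and its own inhibitors (Sprouty, Spred and Dusp proteins). In the early mouse embryo, Fgf4 is made by pluripotent cells, Fgf5 is a marker of the epiblast, and Fgf8 is expressed in the primitive streak, where it is needed for mesoderm cells to migrate. Fgf17 is a close relative of Fgf8, Fgf3 belongs to another branch of the family, and Fgf15 is the mouse counterpart of the human hormone FGF19. Fgfr1 is the main receptor of the epiblast and nascent mesoderm.

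The 10 bulk RNA-seq libraries came from embryoid bodies, the floating clumps in which embryonic stem cells begin to differentiate, of a line named iHA-Etv2 in which doxycycline induces an HA-tagged Etv2. Etv2 is an ETS transcription factor required for blood and endothelial development. There were 5 groups of 2 libraries: untreated at day 2, doxycycline at day 2, untreated at day 2.5, doxycycline at day 2.5, and doxycycline at day 2.5 labelled as positive for Flk1, the receptor encoded by Kdr on blood and endothelial precursors. Every group therefore carries the inducible construct, and the first 4 groups are labelled as not Flk1-positive, but it is not stated whether they were sorted at all. The sources used here give neither the dose of doxycycline, nor the time of its addition, nor the number of clones. The labels do not say that replicates were separate cultures, so p-values measure the spread between these libraries, which may be technical. Libraries held 18074070 to 36068329 counts, and 3 counts, the limit that a count of 0 allows, corresponded to 0.0824 to 0.164 CPM, the count scaled to a common library size. Replicate pairs differed by a chi-square per gene of 3.33 to 9.65 in 4 groups and of 32.0 in the doxycycline group at day 2.

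The induced gene followed the labels. Etv2 stood at 15.8 and 18.1 CPM in the untreated libraries of day 2 and at 507 and 403 CPM with doxycycline. At day 2.5 it stood at 6.57 and 7.50 CPM untreated, at 272 and 255 CPM with doxycycline and at 323 and 303 CPM in Flk1-positive libraries. These counts do not separate the endogenous gene from the induced copy. Kdr followed the same labels, with 7.05 and 7.42 CPM untreated at day 2.5, 405 and 433 CPM with doxycycline, and 1010 and 986 CPM in Flk1-positive libraries.

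Fgf3, Fgf4 and Fgf15 lie next to each other on chromosome 7 (GRCm38), all on the plus strand. Fgf3 spans 144838612 to 144843348, Fgf4 spans 144861386 to 144865245, and Fgf15 spans 144896532 to 144900953. The gaps between them measure 18.0 and 31.3 kb and hold no other coding gene. The stretches directly upstream of Fgf3 and Fgf4 are shown because these neighbours reached their highest levels in different groups. That of Fgf5 (chromosome 5, 98254184 to 98277033, plus strand) is shown because this gene has the highest total count among the 6 ligands. All these stretches are RefSeq sequences (GRCm38.p6), 5′ to 3′ on the gene's strand. Capitals mark GGAA or its complement TTCC, the core letters that ETS factors bind. The Fgf3 stretch stops where an annotated exon begins, and its last capitals open a motif that runs past its end. The positions are chr7:144838362-144838594 for Fgf3, chr7:144861136-144861385 for Fgf4 and chr5:98253934-98254183 for Fgf5.
Fgf3: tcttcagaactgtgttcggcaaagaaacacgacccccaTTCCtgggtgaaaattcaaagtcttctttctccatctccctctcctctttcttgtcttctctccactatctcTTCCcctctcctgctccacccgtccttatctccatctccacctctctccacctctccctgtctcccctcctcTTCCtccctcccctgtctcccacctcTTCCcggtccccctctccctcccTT
Fgf4: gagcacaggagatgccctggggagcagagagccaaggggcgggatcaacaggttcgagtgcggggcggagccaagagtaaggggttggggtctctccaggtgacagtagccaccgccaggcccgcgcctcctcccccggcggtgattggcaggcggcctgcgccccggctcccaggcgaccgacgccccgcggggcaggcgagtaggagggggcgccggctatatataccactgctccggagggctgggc
Fgf5: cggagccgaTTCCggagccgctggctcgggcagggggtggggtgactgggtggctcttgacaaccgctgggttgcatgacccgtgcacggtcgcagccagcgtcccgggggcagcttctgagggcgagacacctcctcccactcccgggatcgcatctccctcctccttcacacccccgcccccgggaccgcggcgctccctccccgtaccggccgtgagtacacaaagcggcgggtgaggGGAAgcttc

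Across the whole window of 250 bases before the start, the Fgf3 promoter held 5 GGAA matches on both strands together, the Fgf4 promoter 0 and the Fgf5 promoter 2. Of 27025 promoters of the same length, 93.4% held at least 1 match, with a median of 3 per promoter, so most promoters carry these letters. The longer form CCGGAA, which contains GGAA, was found in 12.2% of promoters and occurred once each upstream of Fgf5 and Fgfr4. The GATA motif AGATAA, found in 10.3% of promoters, occurred once upstream of Fgf3. Neither the T-box motif AGGTGTGA (1.14% of promoters) nor the TCF/LEF motif CTTTGAT (3.23%) was found upstream of Fgf3, Fgf4, Fgf5, Fgfr2, Fgfr3 or Fgfr4, the 6 genes of the set with an entry in the promoter table. Fgf8, Fgf15, Fgf17 and Fgfr1 had no entry there, and the sequences of Fgfr2, Fgfr3 and Fgfr4 are not shown. A match is a run of letters, not a measured binding site.

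Levels of different genes were compared after division by exon length, as CPM per kb. On this scale the 6 ligands summed to 144 ± 5.45 CPM per kb (SD, n = 2) in untreated embryoid bodies at day 2 and 105 ± 10.9 with doxycycline. At day 2.5 the ligand sum was 200 ± 17.0 untreated, 75.7 ± 4.71 with doxycycline and 52.4 ± 3.97 in Flk1-positive libraries. The 4 receptors moved over a narrower range, with sums of 47.5 ± 1.08 and 42.6 ± 1.24 CPM per kb at day 2 and 52.1 ± 1.53, 55.3 ± 1.51 and 42.0 ± 3.05 CPM per kb in the same 3 groups of day 2.5.

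The makeup of this sum of 6 ligands also differed between groups. Other FGF ligand genes do not enter these sums and shares, among them Fgf10, with 57.6 and 61.8 CPM in Flk1-positive libraries. In untreated embryoid bodies Fgf8 supplied the largest share, 49.0% ± 2.30 (SD, n = 2) at day 2 and 53.8% ± 2.29 at day 2.5, with Fgf5 next at 28.9% ± 1.53 and 33.3% ± 2.34. With doxycycline Fgf5 came first, at 43.5% ± 5.53 at day 2 and 50.6% ± 2.03 at day 2.5. In Flk1-positive libraries Fgf3 came first at 40.6% ± 2.20, against 0.522% ± 0.101 in untreated embryoid bodies of the same day, and Fgf8 supplied 4.73% ± 0.757. Among receptors Fgfr1 supplied most of the length-scaled level in every group, from 97.8% ± 0.121 in untreated embryoid bodies at day 2.5 down to 80.5% ± 0.223 in Flk1-positive libraries. Fgfr4 took the opposite course, from 0.258% ± 0.0534 to 11.5% ± 0.379 in the same 2 groups.

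**Figure D1:**
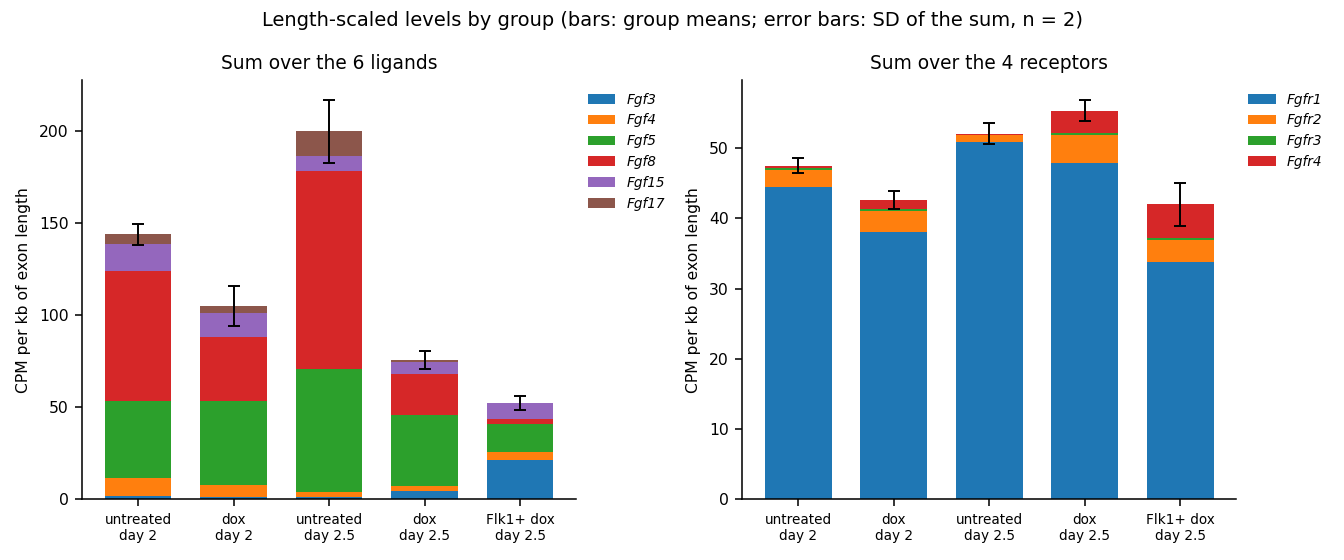
Summed CPM per kb of exon length (y axis, linear from 0) of the 6 ligand genes (left) and the 4 receptor genes (right) in the 5 groups (x axis); coloured segments are group means per gene and error bars are the SD of the sum over 2 libraries. The ligand bar is tallest in untreated embryoid bodies at day 2.5 (200 CPM per kb) and lowest in Flk1-positive libraries (52.4), where Fgf3 forms the largest segment, while receptor bars are mostly Fgfr1.

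Fgf8, the ligand of the primitive streak (chromosome 19, 45736491 to 45742941, minus strand), was read at 89.8 and 101 CPM in the untreated libraries of day 2 and at 55.5 and 39.1 CPM with doxycycline. The day 2.5 libraries held 133 and 159 CPM untreated, 33.4 and 27.3 CPM with doxycycline and 3.92 and 2.81 CPM in Flk1-positive libraries. No group overlapped another, and the highest group mean was 43.3 times the lowest. Fgf17, its close relative (chromosome 14, 70636203 to 70642268, minus strand), kept the same order of groups at a lower level. It was read at 10.1 and 8.35 CPM untreated and 6.84 and 4.84 CPM with doxycycline at day 2. At day 2.5 it was read at 20.4 and 24.4 CPM untreated, 1.84 and 1.76 CPM with doxycycline and 0.165 and 0.053 CPM in Flk1-positive libraries. The last values rest on 4 and 1 counts, so Fgf17 was close to the limit of detection there.

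Fgf5, the epiblast ligand, was read at 105 and 103 CPM untreated and 112 and 115 CPM with doxycycline at day 2. The day 2.5 libraries held 164 and 168 CPM untreated, 97.2 and 94.2 CPM with doxycycline and 39.4 and 38.3 CPM in Flk1-positive libraries. As for Fgf8, the untreated libraries of day 2.5 were highest and the Flk1-positive ones lowest, but over a range of 4.28 times rather than 43.3.

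Fgf3 ran the other way. It was read at 4.33 and 5.07 CPM untreated and 4.58 and 1.95 CPM with doxycycline at day 2, where the groups overlapped. At day 2.5 it was read at 2.57 and 2.20 CPM untreated, 9.39 and 12.6 CPM with doxycycline and 53.5 and 44.5 CPM in Flk1-positive libraries. The Flk1-positive libraries were thus highest, the doxycycline libraries of day 2.5 second, and among the other 3 groups the doxycycline libraries of day 2 overlapped both untreated groups.

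Fgf4 and Fgf15, the neighbours of Fgf3, were instead highest at day 2. Fgf4, the ligand of pluripotent cells, was read at 27.1 and 31.0 CPM untreated and 22.6 and 17.1 CPM with doxycycline at day 2. At day 2.5 Fgf4 was read at 8.57 and 10.7 CPM untreated, 7.83 and 7.65 CPM with doxycycline and 13.1 and 12.6 CPM in Flk1-positive libraries. Fgf15 was read at 27.3 and 26.5 CPM untreated and 24.5 and 23.4 CPM with doxycycline at day 2. At day 2.5 Fgf15 was read at 14.7 and 15.2 CPM untreated, 13.9 and 9.73 CPM with doxycycline and 16.1 and 15.7 CPM in Flk1-positive libraries. Both genes had the same order of groups, with the lowest level in the doxycycline libraries of day 2.5. In the annotation, 27.9% of the Fgf15 exon length overlaps the antisense genes Gm26793 and Gm39119, and the sources used here do not give the strand setting of the counting, so reads of these genes cannot be told apart.

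**Figure D2:**
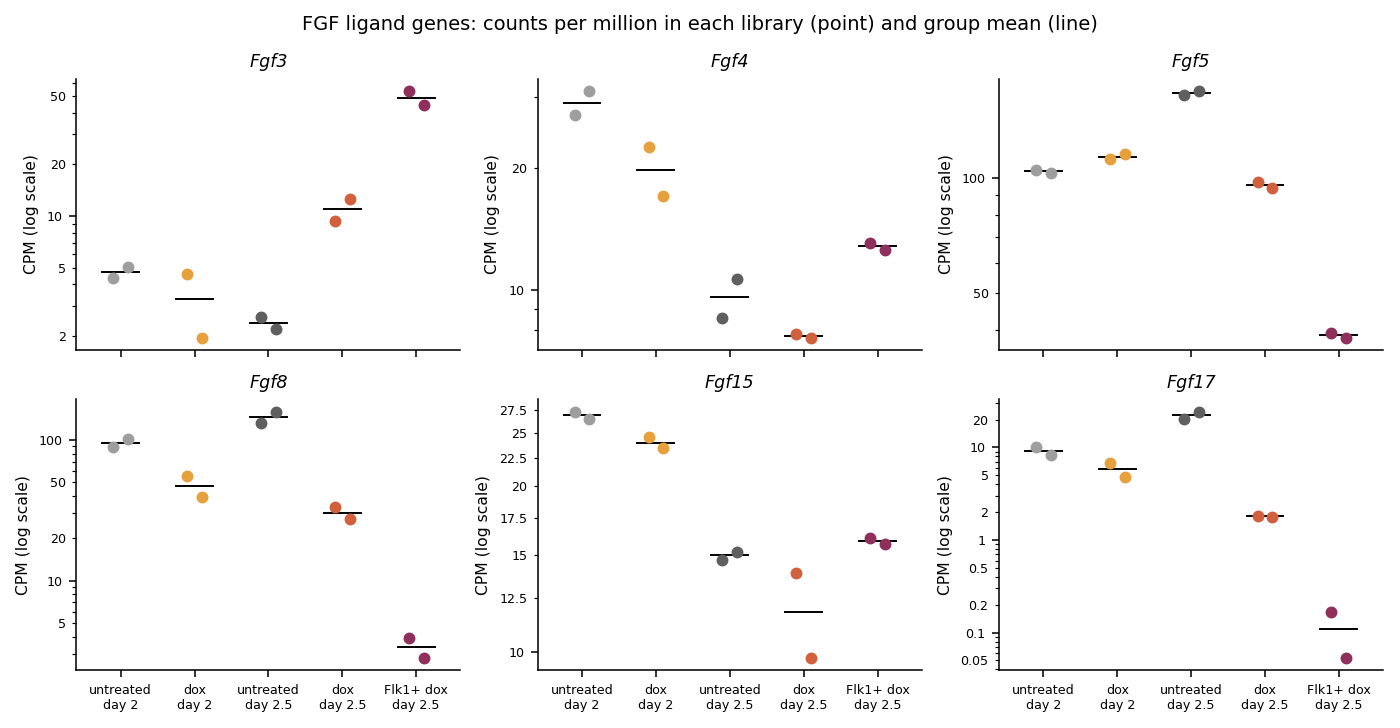
CPM (y axis, log scale, own range per panel) of the 6 ligand genes in the 5 groups (x axis); points are libraries and lines are group means of 2 libraries. Fgf8 and Fgf17 drop from untreated to doxycycline to Flk1-positive libraries at day 2.5, Fgf3 climbs over the same groups to 53.5 and 44.5 CPM, and Fgf4 and Fgf15 are highest at day 2.

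Fgfr1 (chromosome 8, 25518759 to 25575718, plus strand) was the steadiest of the 10 genes, with a highest group mean 1.51 times the lowest. It was read at 227 and 237 CPM untreated and 193 and 204 CPM with doxycycline at day 2. The day 2.5 libraries held 271 and 260 CPM untreated, 244 and 256 CPM with doxycycline and 185 and 167 CPM in Flk1-positive libraries. The Flk1-positive libraries were lowest, and no group overlapped another. Of its exon length, 3.1% overlaps an antisense gene, Gm16159.

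Fgfr2, a receptor best known from epithelia and extraembryonic tissue (chromosome 7, 130162451 to 130266808, minus strand), was read at 13.2 and 11.6 CPM untreated and 15.5 and 15.2 CPM with doxycycline at day 2. Levels at day 2.5 were 4.96 and 4.56 CPM untreated, 19 and 21.7 CPM with doxycycline and 17.5 and 14.9 CPM in Flk1-positive libraries. The untreated libraries of day 2.5 were lowest, and the Flk1-positive libraries overlapped the doxycycline libraries of day 2. Of its exon length, 6.1% overlaps Ctbp2 on the same strand.

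Fgfr4 (chromosome 13, 55152818 to 55168759, plus strand) rested on few reads without doxycycline, at 1.43 and 0.928 CPM at day 2 and 0.522 and 0.373 CPM at day 2.5. With doxycycline it was read at 4.96 and 4.10 CPM at day 2 and at 11.5 and 8.98 CPM at day 2.5, and Flk1-positive libraries held 16.5 and 15.6 CPM. No group overlapped another, and the highest group mean was 35.8 times the lowest. Fgfr3 (chromosome 5, 33721724 to 33737068, plus strand) was the least abundant receptor. It was read at 0.736 and 0.928 CPM untreated and 0.802 and 0.880 CPM with doxycycline at day 2. At day 2.5 it was read at 0.305 and 0.249 CPM untreated, 0.989 and 1.65 CPM with doxycycline and 1.36 and 0.477 CPM in Flk1-positive libraries. Only the untreated libraries of day 2.5 stood apart from the other groups, and 9.9% of its exon length overlaps another gene. For the receptors, counts per gene do not separate the splice forms that set which ligands are bound.

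**Figure D3:**
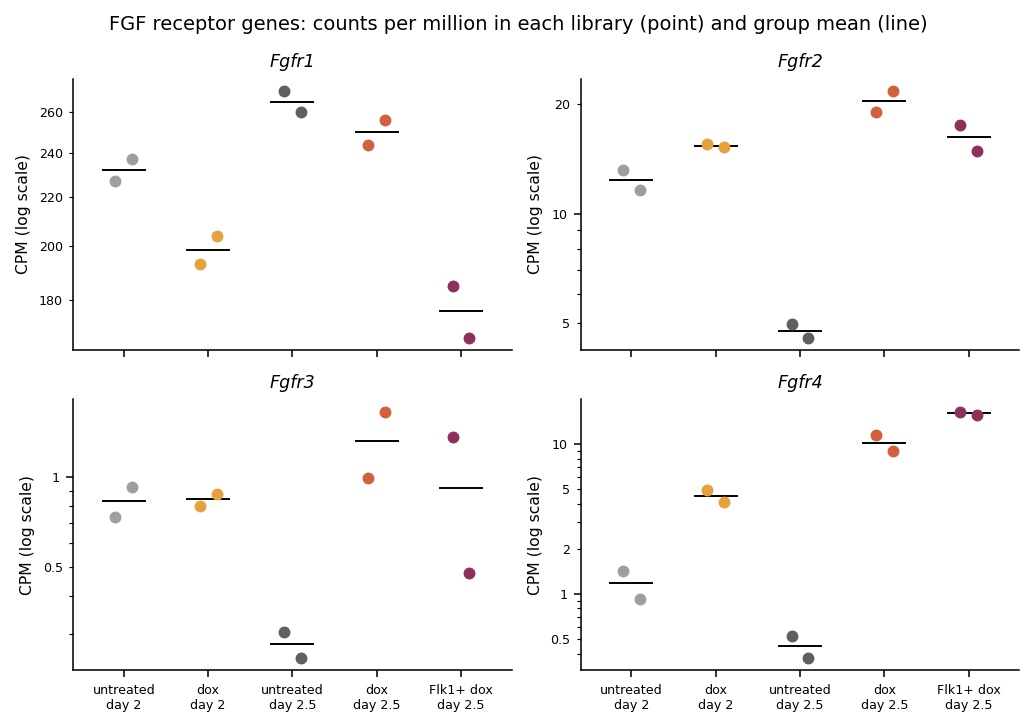
CPM (y axis, log scale, own range per panel) of the 4 receptor genes in the 5 groups (x axis); points are libraries and lines are group means of 2 libraries. Fgfr1 stays between 167 and 271 CPM, Fgfr2 and Fgfr3 are lowest in the untreated libraries of day 2.5, and Fgfr4 climbs to 16.5 and 15.6 CPM in Flk1-positive libraries.

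The first comparison asked what doxycycline did at day 2. Fgf8 fell 2.02-fold and Fgfr4 rose 3.77-fold, and the other 8 genes did not pass the test. Differences were tested with edgeR's quasi-likelihood test and Benjamini-Hochberg adjustment over 14548 genes at a threshold of 0.05, with log2 fold changes given ± the standard error. The change of Fgf8 was -1.01 ± 0.16 (adjusted p = 0.00133) and that of Fgfr4 was 1.92 ± 0.28 (adjusted p = 0.000573). Of all genes tested, 3.11% were called higher and 1.56% lower, 4.67% in all, against 1 and 1 of the 10. Next came Fgf4, with a log2 difference of -0.55 ± 0.16 (adjusted p = 0.0742), and Fgf17, with -0.66 ± 0.22 (adjusted p = 0.12). The median log2 difference was -0.53 over the 6 ligands, 0.17 over the 4 receptors and 0 over all genes tested.

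Several of these results depended on the setting. Fitted on its 4 libraries alone, the day 2 comparison called neither Fgf8 (adjusted p = 0.0509) nor Fgfr4 (adjusted p = 0.0604), with log2 changes of -1.02 and 1.91. Of all 13648 genes in that fit, 117 were called higher and 38 lower. Without doxycycline replicate 1 of day 2, the log2 changes of Fgf3, Fgf4 and Fgf17 were -1.26, -0.76 and -0.94. With all libraries they were -0.51, -0.55 and -0.66. Without replicate 2, that of Fgfr1 was -0.26 in place of -0.22. With the trends over gene length and GC removed, 4 of the 10 were lower, where 3.8% of all genes tested were lower in place of 1.56%. Higher genes then made up 54.3% of all calls in place of 66.6%.

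At day 2.5 doxycycline went with a broader shift. Among ligands, Fgf8 fell 4.79-fold, Fgf17 fell 12.4-fold and Fgf5 fell 1.74-fold, while Fgf3 rose 4.62-fold. Among receptors, Fgfr4 rose 22.7-fold, Fgfr2 rose 4.28-fold and Fgfr3 rose 4.70-fold, and Fgfr1 did not pass the test. The counts were 4 higher and 3 lower of 10, where 16.1% of all genes tested were higher and 13.8% lower, 29.9% in all. The median log2 difference was -0.57 over ligands, 2.16 over receptors and 0 over all genes tested.

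The edgeR log2 changes of the ligands at day 2.5 were -2.26 ± 0.16 for Fgf8 (adjusted p = 7.44e-08), -3.63 ± 0.24 for Fgf17 (adjusted p = 1.4e-08), -0.80 ± 0.08 for Fgf5 (adjusted p = 2.79e-06) and 2.21 ± 0.28 for Fgf3 (adjusted p = 3.07e-05). Those of the receptors were 4.50 ± 0.30 for Fgfr4 (adjusted p = 2.04e-08), 2.10 ± 0.17 for Fgfr2 (adjusted p = 1.3e-07) and 2.23 ± 0.63 for Fgfr3 (adjusted p = 0.0141). Fgf4 (-0.32 ± 0.17, adjusted p = 0.19), Fgf15 (-0.34 ± 0.16, adjusted p = 0.133) and Fgfr1 (-0.09 ± 0.09, adjusted p = 0.475) were not called. Fgfr3 rests on 13 counts in the untreated group, and its call was lost without either untreated library (adjusted p = 0.07 and 0.0968) or without doxycycline replicate 2 (adjusted p = 0.113), and Fgf15 was called lower without doxycycline replicate 1 (-0.65, adjusted p = 0.0167). With length and GC trends removed, Fgf4 (-0.46), Fgf15 (-0.39) and Fgfr1 (-0.33, adjusted p = 0.000395) were called lower as well. That removal lowered the median of all genes by 0.11 on the log2 scale and left 33.9% of all calls higher in place of 54.0%. Of all genes tested, 28% were then lower in place of 13.8%.

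Set against the doxycycline libraries of day 2.5, which also serve in the comparison above, Flk1-positive libraries held less Fgf8, Fgf17 and Fgf5 and more Fgf3. Fgf8 was 8.89-fold lower (-3.15 ± 0.21, adjusted p = 5.53e-08) and Fgf5 was 2.46-fold lower (-1.30 ± 0.09, adjusted p = 3.6e-08). Fgf17 was lower by 15.5 times by its counts (5 against 128, 95% counting interval 6.48 to 48.6), with a fitted log2 change of -3.90 ± 0.48 (adjusted p = 1.47e-05). Without Flk1-positive replicate 1, which leaves 1 count, that ratio was 34 (6 to 1350), and the fitted change -4.95. Fgf3 was 4.45-fold higher (2.15 ± 0.24, adjusted p = 6.77e-06). Its neighbour Fgf4 also rose, by 1.66-fold (0.73 ± 0.17, adjusted p = 0.00326).

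Among receptors in this comparison, Fgfr1 fell 1.42-fold (-0.50 ± 0.09, adjusted p = 0.000286) and Fgfr4 rose 1.57-fold (0.65 ± 0.21, adjusted p = 0.0207). Fgfr2 (-0.33 ± 0.15, adjusted p = 0.0947) and Fgfr3 (-0.48 ± 0.55, adjusted p = 0.506) were not called. Fgf15 passed narrowly (0.43 ± 0.16, adjusted p = 0.0434). In all, 4 were higher and 4 lower, where 20.5% of all genes tested were higher and 21.3% lower, so 41.8% of genes were called in this comparison. The calls of Fgf15 and Fgfr4 depended on which libraries were kept. Without doxycycline replicate 2 of day 2.5 both were lost, at log2 changes of 0.19 and 0.48. The call of Fgf15 was also lost when any single untreated library was left out, at log2 changes of 0.42 or 0.43, although these libraries do not enter this comparison. Leaving out Flk1-positive replicate 1 or replicate 2 ended the call of Fgfr4 (adjusted p = 0.114 and 0.069) and of Fgf15 (adjusted p = 0.146 and 0.113) too.

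Against untreated embryoid bodies of day 2.5, whose libraries also serve in the doxycycline comparison, Flk1-positive libraries held 42.6-fold less Fgf8 (-5.41 ± 0.21, adjusted p = 2.4e-11) and 4.28-fold less Fgf5 (-2.10 ± 0.09, adjusted p = 2.73e-11). Fgf17 was lower by 194 times by its counts (5 against 1059, 95% counting interval 82.7 to 598), or by 424 times (76 to 16800) without Flk1-positive replicate 1. Fgf3 was 20.6-fold higher (4.36 ± 0.29, adjusted p = 7.1e-09). Fgfr4 was 35.6-fold higher (5.15 ± 0.30, adjusted p = 1.46e-09) and Fgfr2 was 3.41-fold higher (1.77 ± 0.17, adjusted p = 3.67e-07), while Fgfr1 was 1.51-fold lower (-0.59 ± 0.09, adjusted p = 3.27e-05). The counts were 4 higher and 4 lower, against 28.6% and 26.6% of all genes tested, 55.3% in all. The fourth gene called higher, Fgfr3 (1.75 ± 0.66, adjusted p = 0.0346), lost its call by limma-voom (adjusted p = 0.079) and without untreated replicate 1 (0.0929), untreated replicate 2 (0.143) or Flk1-positive replicate 1 (0.48). Fgf4 (0.41 ± 0.17, adjusted p = 0.0553) and Fgf15 (0.09 ± 0.16, adjusted p = 0.649) were not called. Fgf4 was called higher without untreated replicate 2 (adjusted p = 0.0423), without either doxycycline library of day 2 (0.0219 and 0.021), and on library totals with no scaling factor (0.0247), which raised the median of all genes by 0.11.

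Time alone moved the set as well. Without doxycycline, Fgf5 (0.67 ± 0.08, adjusted p = 0.000168), Fgf8 (0.61 ± 0.16, adjusted p = 0.0147) and Fgf17 (1.28 ± 0.21, adjusted p = 0.00106) rose from day 2 to day 2.5. Fgf4 (-1.59 ± 0.17, adjusted p = 6.08e-05), Fgf15 (-0.85 ± 0.16, adjusted p = 0.00234), Fgfr2 (-1.38 ± 0.17, adjusted p = 0.000168), Fgf3 (-0.98 ± 0.31, adjusted p = 0.0401) and Fgfr4 (-1.41 ± 0.39, adjusted p = 0.0198) fell. That made 3 higher and 5 lower, where 9.22% and 10.3% of all genes tested were called, 19.5% in all. Fgfr1 (0.19 ± 0.09, adjusted p = 0.126) and Fgfr3 (-1.57 ± 0.67, adjusted p = 0.116) were not called, and Fgfr1 was called higher without either doxycycline library of day 2 (adjusted p = 0.0251 and 0.0249). The call of Fgf8 was lost without untreated replicate 1 of day 2 (adjusted p = 0.138), replicate 2 of day 2 (0.0602) or replicate 2 of day 2.5 (0.174). The call of Fgf3 was lost without any of the 4 untreated libraries (adjusted p = 0.104 to 0.237) or either Flk1-positive library (0.0597 and 0.0612), and that of Fgfr4 without replicate 1 of day 2 (0.22) or replicate 2 of day 2.5 (0.164). The sum of 8 primitive streak markers lay at 1290 to 1310 CPM on day 2 and at 2640 to 3000 CPM on day 2.5. That of 8 endothelial markers lay at 75.1 to 80.9 and then 37.9 to 40.7 CPM, and that of 8 epiblast markers at 4820 to 4960 and then 4260 to 4500 CPM. Their part in the changes over time was not tested.

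With doxycycline, Fgf3 rose over the same interval (1.75 ± 0.28, adjusted p = 0.000146), as did Fgfr4 (1.17 ± 0.22, adjusted p = 0.000607), Fgfr1 (0.33 ± 0.09, adjusted p = 0.00544) and Fgfr2 (0.41 ± 0.15, adjusted p = 0.0382). Fgf17 (-1.70 ± 0.24, adjusted p = 5.9e-05), Fgf4 (-1.36 ± 0.17, adjusted p = 1.7e-05), Fgf15 (-1.02 ± 0.16, adjusted p = 0.000113), Fgf8 (-0.64 ± 0.16, adjusted p = 0.00498) and Fgf5 (-0.25 ± 0.08, adjusted p = 0.0238) fell. These were 4 higher and 5 lower, against 22.9% and 23.1% of all genes tested, 46% in all, and Fgfr3 was not called (0.64 ± 0.56, adjusted p = 0.366). Without doxycycline replicate 2 of day 2.5, the calls of Fgf5 (adjusted p = 0.154), Fgf8 (0.0692), Fgfr1 (0.065) and Fgfr2 (0.245) were lost. With length and GC trends removed, the changes of Fgfr1 (0.10, adjusted p = 0.235) and Fgfr2 (0.20, adjusted p = 0.273) were smaller and not called. The call of Fgf5 was also lost without replicate 1 of day 2.5 (0.0817), and that of Fgfr2 in 7 of the other settings tried, among them without either doxycycline library of day 2 (0.0627 and 0.0722), without replicate 1 of day 2.5 (0.0599) and without either untreated library of day 2 (0.0556 and 0.0552). In these libraries the streak markers summed to 1230 to 1340 CPM at day 2 and 836 to 867 CPM at day 2.5, and the endothelial markers to 184 to 220 and 710 to 742 CPM, and their part was not tested here either. Fgf4 and Fgf15 fell with time in both arms, and their interaction of doxycycline and day did not pass the test (0.23 ± 0.24, adjusted p = 0.589, and -0.17 ± 0.22, adjusted p = 0.689). The interaction was called higher for Fgf3, Fgfr2 and Fgfr4 and lower for Fgf5, Fgf8 and Fgf17, which is 3 and 3 of the 10, against 6.87% and 5.24% of all genes tested.

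**Figure D4:**
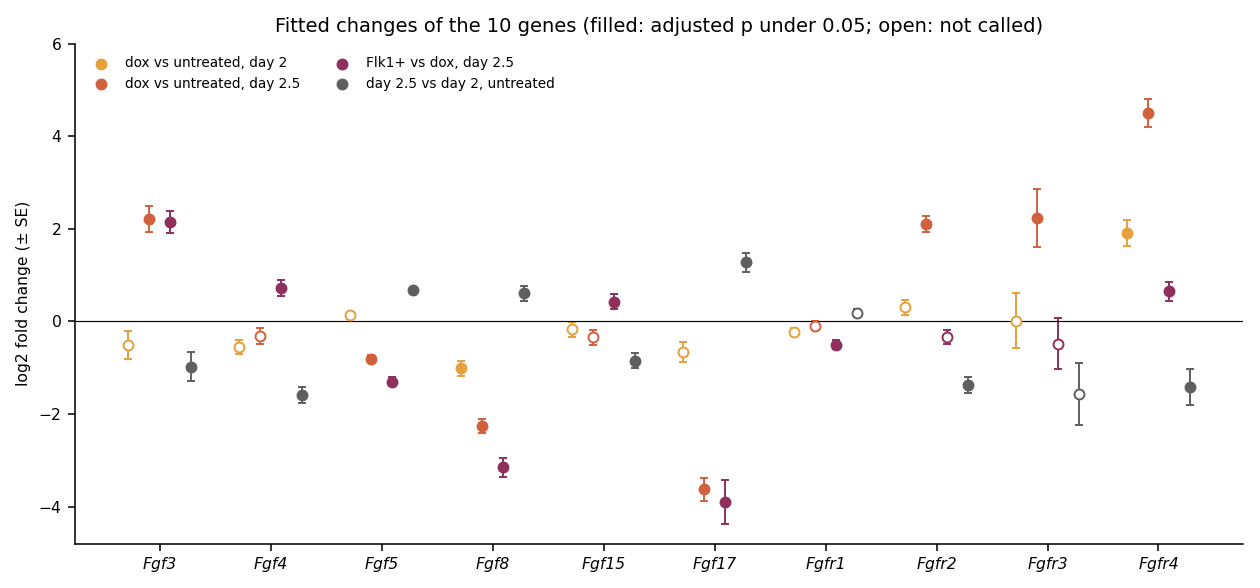
Fitted log2 fold changes (y axis, ± SE) of the 10 genes (x axis) in 4 comparisons, by colour; filled points had an adjusted p under 0.05 and open points did not. At day 2.5 the doxycycline point of Fgfr4 is highest at 4.50, those of Fgf8 and Fgf17 lie at -2.26 and -3.63, and Fgf3 is at 2.21 with doxycycline and again at 2.15 between Flk1-positive and doxycycline libraries.

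Markers of other cell types moved with these changes. Summed over 8 epiblast and pluripotency markers, the level at day 2.5 was 4260 to 4500 CPM untreated and 2470 to 2510 CPM with doxycycline. In Flk1-positive libraries it was 1830 to 1930 CPM. With doxycycline 7 of the 8 fell and 1 rose, where 13.8% of all genes tested were lower and 16.1% higher. The 8 primitive streak and nascent mesoderm markers summed to 2640 to 3000, 836 to 867 and 773 to 809 CPM in the same order. Of these 8, 7 fell with doxycycline and 0 rose, beside the falls of Fgf8, Fgf17 and Fgf5. In Flk1-positive against doxycycline libraries 3 streak markers were higher and 5 lower, against 20.5% and 21.3% of all genes tested. The 8 endothelial markers summed to 37.9 to 40.7, 710 to 742 and 1770 to 1850 CPM. Kdr, the gene of the Flk1 label, is among them and alone held 405 and 433, then 1010 and 986 CPM in the last 2 groups. The 8 haematopoietic markers summed to 12.9 to 13.8, 674 to 691 and 1750 to 1850 CPM, and both sums rose beside Fgf3 and Fgfr4. In each of these 2 lists the 7 genes that passed the filter were higher with doxycycline, where 16.1% of all genes tested were. In Flk1-positive against doxycycline libraries, 5 endothelial markers were higher and 1 lower, and 6 haematopoietic markers were higher and 0 lower. Emcn in untreated libraries and Ptprc in both doxycycline groups were at 0. The 9 extraembryonic endoderm markers summed to 56.7 to 59.0, 69.9 to 77.9 and 128 to 137 CPM. Afp was at 0 in all 3 groups and Ttr at 0 in untreated libraries. Of the 6 that passed the filter, 2 were higher and 1 lower in Flk1-positive than in doxycycline libraries (median log2 difference -0.66). Against untreated libraries 2 were higher and 2 lower (median -0.28), where 28.6% and 26.6% of all genes tested were. In both comparisons the sum was higher while the median of the tested markers was lower. The 7 fibroblast markers summed to 27.6 to 30.7, 30.3 to 40.1 and 21.1 to 24.2 CPM with Lum at 0 in all 3 groups and Col3a1, Dcn and Postn at 0 in Flk1-positive libraries. The 6 trophoblast markers summed to 32.2 to 32.5, 21.7 to 28.2 and 6.73 to 7.06 CPM and the 6 neuroectoderm markers to 286 to 310, 332 to 344 and 249 to 270 CPM. The part of cell makeup in the FGF values was not tested. In bulk samples, fewer cells of a type and less RNA per cell cannot be told apart.

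Of 16 other FGF ligand genes 7 passed the filter on low counts, and 2 of these rose with doxycycline at day 2.5, where 16.1% of all genes tested were higher. Fgf10, a ligand of mesoderm that signals through Fgfr2, was read at 13.3 and 12.1 CPM untreated, 43.1 and 42.2 CPM with doxycycline and 57.6 and 61.8 CPM in Flk1-positive libraries. The doxycycline change was 1.75 ± 0.13 (adjusted p = 6.23e-08), with a further 0.49 ± 0.12 in Flk1-positive libraries (adjusted p = 0.0047). Fgf1, which binds all FGF receptors, was read at 0.261 and 0.290 CPM untreated against 3.35 and 3.58 CPM with doxycycline (3.63 ± 0.63, adjusted p = 0.00044). Fgf9 had 0 counts in both Flk1-positive libraries and was there at least 9.76-fold lower than in untreated embryoid bodies, taking a floor of 3 counts over the group. The bound was 5-fold without untreated replicate 2, 4.27-fold without Flk1-positive replicate 1 and 5.48-fold without Flk1-positive replicate 2. Fgf13, an intracellular member that is not secreted, was higher in Flk1-positive than in untreated libraries (0.54 ± 0.17, adjusted p = 0.0138), a call lost without untreated replicate 2 (0.17) or Flk1-positive replicate 2 (0.19).

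Of 8 co-receptors and extracellular partners 6 passed the filter, and 1 of these, Fgfbp1, fell with doxycycline at day 2.5, where 13.8% of all genes tested were lower. Fgfbp1, a carrier that releases FGFs from the matrix, was read at 4.22 and 8.12 CPM untreated, 2.77 and 3 CPM with doxycycline and 0.330 and 0.159 CPM in Flk1-positive libraries. It was lower in Flk1-positive than in doxycycline libraries (-3.48 ± 0.48, adjusted p = 4e-05). Its lower level with doxycycline (-1.10 ± 0.31, adjusted p = 0.0147) rested on single libraries, with adjusted p = 0.288 without untreated replicate 2, 0.0784 without doxycycline replicate 1 and 0.0687 without doxycycline replicate 2. Flrt2, an adhesion protein that binds FGF receptors, stood at 3.70 and 3.85, 4.12 and 3.78, and 2.06 and 1.80 CPM in the same 3 groups.

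All 25 genes of heparan sulphate proteoglycans and their enzymes were tested, and at day 2.5 doxycycline raised 6 and lowered 8, with a median log2 difference of -0.03, where 16.1% of all genes tested were higher and 13.8% lower. Sulf1, which removes sulphate groups from heparan sulphate outside the cell, was read at 227 and 227 CPM untreated, 112 and 120 CPM with doxycycline and 29.7 and 31.1 CPM in Flk1-positive libraries. It fell with doxycycline (-0.96 ± 0.10, adjusted p = 3.37e-06) and was lower again in Flk1-positive libraries (-1.94 ± 0.11, adjusted p = 6.03e-09). The core proteins were split: Sdc3 rose with doxycycline (1.69 ± 0.12, adjusted p = 2.3e-08) and Gpc2 rose (0.74 ± 0.14, adjusted p = 0.00076), while Gpc4 fell (-1.04 ± 0.16, adjusted p = 0.000117). The number that fell was 5 without untreated replicate 1 or doxycycline replicate 2 of day 2.5.

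Of 22 adaptor and RAS-ERK genes 21 were in the table and tested, and at day 2.5 doxycycline raised 6 and lowered 2, where 16.1% of all genes tested were higher and 13.8% lower (29.9% in all). Shc1, an adaptor of receptor tyrosine kinases, was read at 177 and 164 CPM untreated, 355 and 333 CPM with doxycycline and 503 and 509 CPM in Flk1-positive libraries (1.01 ± 0.09 with doxycycline, adjusted p = 3.01e-07). Ksr1, a scaffold of the cascade, rose by 1.78 ± 0.17 (adjusted p = 1.24e-06), and Rps6ka1, a kinase downstream of ERK, by 1.06 ± 0.09 (adjusted p = 3.47e-07). Map2k1, the ERK kinase MEK1, was among those that fell (-0.29 ± 0.09, adjusted p = 0.0308) and was named after its value was seen. The number that fell depended on single libraries. With length and GC trends removed it was 10, where 28% of all genes tested were lower in place of 13.8%.

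Of 13 targets and inhibitors of the ERK cascade, 4 rose with doxycycline at day 2 (Dusp6, Dusp4, Spry4 and Spry2) and Etv5 fell, where 3.11% of all genes tested were higher and 1.56% lower. At day 2.5, 2 rose (Spry1 and Dusp4) and 8 fell, where 16.1% of all genes tested were higher and 13.8% lower. Dusp6, Spry4 and Spry2 were called in opposite directions on the 2 days, while Dusp4 was higher and Etv5 lower on both. The interaction of doxycycline and day was called lower for 7 of the 13, against 5.24% of all genes tested. The call of Etv5 at day 2 was lost without either untreated library (adjusted p = 0.151 and 0.0729). Etv5, Etv4 and Etv1, the PEA3 factors, fell at day 2.5 by 1.88, 3.16 and 2.20 on the log2 scale (SE 0.08, 0.11 and 0.13; adjusted p = 1.65e-10, 1.11e-11 and 3.82e-09). Etv5 was read at 406 and 376 CPM untreated, 106 and 107 CPM with doxycycline and 12.4 and 12.2 CPM in Flk1-positive libraries. Spred3, an inhibitor of RAS signalling, fell by 1.60 (SE 0.12, adjusted p = 7.77e-08).

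Dusp4, Dusp6, Spry1, Spry2 and Spry4 were named after their values were seen, to account for these counts, and Dusp6 and Spry4 are described further. Dusp6, a phosphatase of ERK, was read at 246 and 234 CPM untreated and 676 and 630 CPM with doxycycline at day 2, and at 374 and 352 against 297 and 277 CPM at day 2.5. Its log2 change with doxycycline was 1.44 ± 0.09 at day 2 (adjusted p = 4.93e-08) and -0.34 ± 0.08 at day 2.5 (adjusted p = 0.00701), the latter lost without untreated replicate 1 (0.067) or doxycycline replicate 2 (0.108). Spry4, a Sprouty inhibitor, was read at 61.6 and 51.0 against 102 and 107 CPM at day 2 and at 57.9 and 50.1 against 21.6 and 19 CPM at day 2.5. Its log2 change was 0.89 ± 0.12 at day 2 (adjusted p = 0.000216) and -1.41 ± 0.12 at day 2.5 (adjusted p = 3.95e-07). The difference between the days passed the test for both, at -1.78 ± 0.12 for Dusp6 (adjusted p = 2.01e-07) and -2.30 ± 0.17 for Spry4 (adjusted p = 5.13e-07).

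**Figure D5:**
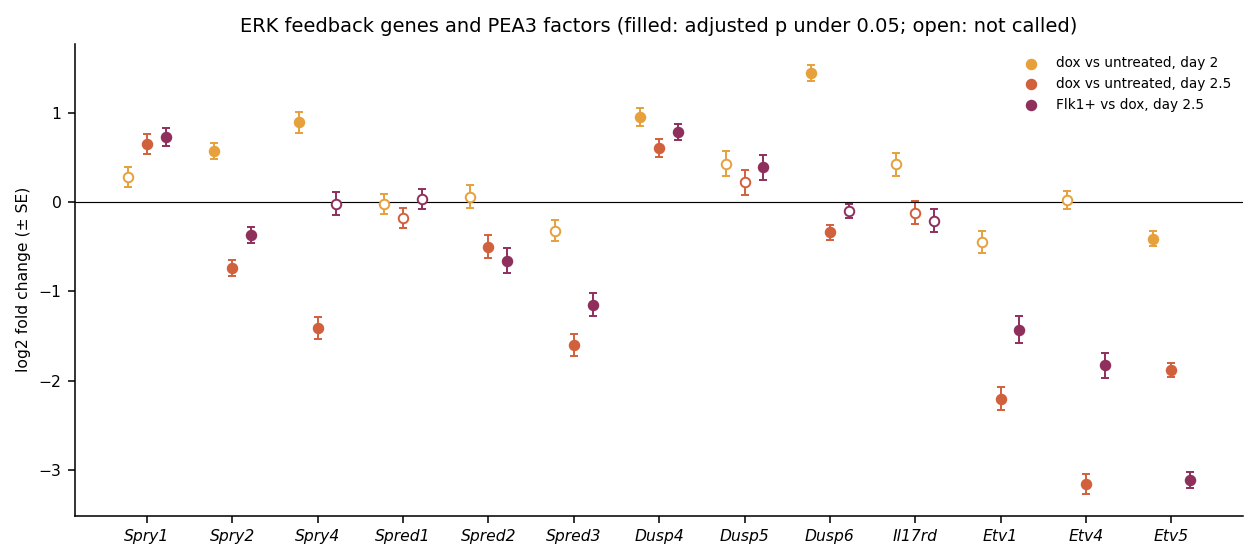
Fitted log2 fold changes (y axis, ± SE) of the 13 ERK feedback genes and PEA3 factors (x axis) in 3 comparisons, by colour; filled points had an adjusted p under 0.05 and open points did not. Dusp6 and Spry4 lie above 0 with doxycycline at day 2 (1.44 and 0.89) and below 0 at day 2.5 (-0.34 and -1.41), and Etv1, Etv4 and Etv5 lie lowest at day 2.5.

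The genes whose pattern was most like each ligand or receptor were taken from 11379 tested genes with a highest group mean of at least 5 CPM, by Pearson's r of log2 CPM over the 10 libraries. The libraries fall into 5 groups of 2, so r mainly reflects the order of 5 group means, and it is given as a description. Fgf8 was followed most closely by Manf (r = 0.997), Mycl1 (0.995) and Wnt8a (0.993), the last a WNT ligand of the primitive streak. Fgf17 was followed by Fst (0.996), the activin antagonist follistatin, and by Rcor2 and Spred3 (0.994 each). The genes closest to Fgf5 were Stip1 (0.992), Ndrg2 and Pmepa1 (0.99 each), and those closest to Fgf3 were Catsperg1 (0.99), Bambi (0.989), a decoy receptor of TGF-beta and BMP signalling, and Abca7 (0.987). Fgf4 was nearest to Erh (0.962), Tmem79 (0.961) and Tpm4 (0.956), and Fgf15 to Slc25a16 (0.985), Rangrf (0.966) and Gpn1 (0.965).

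Among receptors, Fgfr4 was nearest to Ripk3, Coro2b and Rhoj (0.989 each), Rhoj being a small GTPase of endothelial cells. Fgfr2 was nearest to Laptm5 (0.98), Sowahb (0.967) and Pipox (0.957), and Fgfr1 to Carm1 (0.979), Pkia and Hspa4l (0.968 each). Fgfr3 had no close follower, its highest r being 0.877 for Jup, before Ehd4 (0.848) and Cdkn1a (0.838), with 6 to 57 counts per library.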

How the data were processed

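Bulk RNA-seq counts per gene were analysed as deposited by the authors, as raw counts with no normalization. The submitters' processing notes name TopHat, HTSeq, DESeq2 and the mm10 build, without versions or roles; the sources used here do not give the annotation, strand setting or handling of reads with several matches. The table held 23429 entries, of which 92 spike-ins at 0 counts were left out, and 0 columns of other samples.

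The edgeR package (4.0.16, R 4.3.3) was used for the fit: filterByExpr with at least 10 counts, and 15 in total, TMM scaling, and robust quasi-likelihood with 1 mean per group over all 10 libraries. This left 5 residual degrees of freedom, and the common coefficient of biological variation was 0.1. The 7 comparisons were adjusted by Benjamini-Hochberg over 14548 genes at a threshold of 0.05, and the standard error comes from the F statistic. CPM uses TMM-scaled library sizes, and CPM per kb uses the summed exon length of the GENCODE M21 basic annotation, with gene coordinates from RefSeq. Correlations use log2 CPM with a prior count of 2. The procedure was tested on simulated data. Counting intervals are exact 95% intervals and, like the floor of 3 counts, cover counting error only.

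The alternatives were DESeq2 1.42.0, limma-voom (limma 3.58.1), other scalings, no filter, the compared groups alone, a replicate block and leaving out each library. Removal of length and GC trends, all alternatives for listed genes, and the follow-up of 5 feedback genes were added after seeing the data. The members and gene lists were chosen with earlier results of these data known. Named were all 10 genes in every comparison, Etv2 and Kdr, up to 4 called genes per list with the smallest adjusted p over the first 4 comparisons, and the 3 genes most like each member. The values of 1 listed gene that this rule names are not reported here.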

Additional observations from a re-analysis of the deposited data

Results flagged for a closer look

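For 6 of the 10 genes the effect of doxycycline differed between the days by edgeR's test of the interaction, where 12.1% of all genes tested were called (6.87% higher and 5.24% lower). The difference, day 2.5 minus day 2 on the log2 scale, was 2.72 ± 0.42 for Fgf3 (adjusted p = 0.000556), whose doxycycline change was -0.51 at day 2 and 2.21 at day 2.5. It was 2.59 ± 0.45 for Fgfr4 (adjusted p = 0.00134) and 1.79 ± 0.23 for Fgfr2 (adjusted p = 9.84e-05). It was -2.97 ± 0.32 for Fgf17 (adjusted p = 2.01e-05), -1.25 ± 0.22 for Fgf8 (adjusted p = 0.00211) and -0.92 ± 0.12 for Fgf5 (adjusted p = 9.84e-05). The interaction was called for the same number of genes, 3 higher and 3 lower, without each of the 10 libraries in turn. With length and GC trends removed, 32.2% of all interaction calls were higher in place of 56.7%, and the counts among the 10 genes were again 3 and 3.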

How the results depend on the processing

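Over 18 alternative settings, 1181 of 1260 log2 values of the 10 genes kept their direction and their side of the threshold, 50 lost a call, 24 gained one and 5 changed sign, none of the last being called. The sign changes were Fgf15 in the interaction without doxycycline replicate 2 of day 2.5 (0.07), Fgfr1 in the interaction with length and GC trends removed (-0.11), Fgfr3 for doxycycline at day 2 without untreated replicate 1 (-0.14) or doxycycline replicate 2 (-0.04), and Fgfr3 in Flk1-positive against doxycycline libraries without Flk1-positive replicate 2 (0.05). Leaving out each library in turn gave -0.47 to 0.07 for that value of Fgf15, -0.14 to 0.19 for Fgfr3 at day 2 and -1.45 to 0.05 for Fgfr3 in the last comparison. For doxycycline at day 2, the fit of the compared groups alone called 0 higher and 0 lower, with fewer samples to estimate the spread. Of all 13648 genes in that fit, 117 were higher and 38 lower, against 453 and 227 of 14548 with all libraries. The lower count was 2 with DESeq2, 2 with limma-voom, 3 without the filter and 4 with length and GC trends removed. Over all genes, the lower counts in the same order were 343 of 14548, 229 of 14548, 437 of 18526 and 553 of 14548. With length and GC trends removed, the count lower with doxycycline at day 2.5 was 6, where 28% of all genes tested were lower. The count higher over time with doxycycline was 2, where 21.5% of all genes tested were higher. Limma-voom called 3 lower over time without doxycycline, where 1466 of 14548 genes were lower, against 1494 by edgeR. The cause of these shifts was not tested. Leaving out each library in turn gave the following ranges of higher and lower counts: 1 to 1 and 1 to 4 for doxycycline at day 2, 3 to 4 and 3 to 4 at day 2.5, 2 to 4 and 4 to 4 for Flk1-positive against doxycycline, 3 to 5 and 4 to 4 for Flk1-positive against untreated, 2 to 4 and 3 to 5 over time without doxycycline, 2 to 4 and 3 to 5 over time with it, and 3 to 3 and 3 to 3 for the interaction. Same-numbered replicates correlated between -0.03 and 0.1 in their deviations over 10 pairs of groups, so the numbers are not shown to pair the libraries. A fit with the replicate number as a block gave 1 higher and 1 lower for doxycycline at day 2, 4 and 3 at day 2.5, and the same counts as without the block in the other comparisons. Depth limited Fgfr3, with 6 to 57 counts per library, and Fgf17 in Flk1-positive libraries, with 4 and 1.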
